A study of Homo sapiens with 10 samples.

Results

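The messages described here encode the proteasome: the subunits of its core and regulatory particles, its regulators and the factors that assemble it. They were all protein-coding genes whose symbol starts with PSMA to PSMG and a number, together with POMP, with the entry of highest mean kept where a symbol had several. This gave 47 proteasome genes of 26134 entries in the deposited table. PSMC3IP also met the symbol pattern but encodes a partner of the recombinases of meiosis, so it is given apart. Of the 47 genes, 17 encode core subunits, 6 the ATPases, 8 the lid, 8 assembly factors and 5 regulators. The remaining 3 are the large base subunits PSMD1 and PSMD2 and the ubiquitin receptor PSMD4.

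The proteasome degrades proteins tagged with ubiquitin. Its core is a barrel of outer alpha rings, which gate the entry, and inner beta rings, in which PSMB5, PSMB6 and PSMB7 carry the cutting sites. In the immunoproteasome, known from immune cells and from cells exposed to interferon, PSMB8, PSMB9 and PSMB10 take the places of PSMB5, PSMB6 and PSMB7. The regulatory particle caps the barrel: its base holds the ring of ATPases that unfold substrates, and its lid removes the ubiquitin chain.

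The study compared protrusions with the cell bodies they were cut from, in MDA-MB-231, a line derived from a triple-negative breast tumour. The labels name no genetic change or drug in either group. Cells were trapped singly on a chip, left for 6 h to extend protrusions and fixed for 15 min in 4% paraformaldehyde. Laser capture microdissection then separated the 2 parts, giving 5 protrusion libraries and 5 cell body libraries, numbered 1 to 5 in each group, from polyadenylated RNA amplified for very low input. The labels give neither the number of cells per library nor whether cultures were separate. The p-values therefore rest on the variation among these libraries alone, and that variation may be technical.

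Values are scaled TPM, that is TPM, a level corrected for transcript length, multiplied by 1 factor per library, and their read depth is unknown. The factors ran from 0.738 to 1.103 in protrusions and from 0.968 to 1.39 in cell bodies. The cell line's vimentin gene VIM lay between 449.9 and 736 in protrusions and between 546 and 713 in cell bodies, while the receptor gene PGR was at 0.01 or less everywhere. CD44 lay between 43.6 and 75.3 in protrusions and between 39.0 and 54.9 in cell bodies, and the epithelial gene CDH1 reached at most 0.107 in protrusions and 1.38 in cell bodies. Of other genes chosen as likely low in this line, EPCAM lay between 0.787 and 5.2 in protrusions and between 1.54 and 4.18 in cell bodies. GATA3 lay between 0.295 and 1.64 in protrusions and between 0.552 and 0.987 in cell bodies, and ESR1 had no entry. Of 5 blood cell markers in the table, PTPRC, CD3E, CD79A and CD14 stayed below 1 in every library, and LYZ was at 0.06 to 1.66 in protrusions and 9.68 to 20.3 in cell bodies. The 5 summed to 0.074 to 2.67 in protrusions and 9.68 to 20.3 in cell bodies, and their part in the results was not tested. MALAT1, a nuclear RNA, was at 0.288 to 5.06 in 4 protrusion libraries, at 25.2 in protrusion 2 and at 47.5 to 143 in cell bodies, so protrusion 2 stood nearest to the cell bodies.

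The promoters of 6 proteasome genes are shown because they hold GAAA, any 2 bases and GAAA again within 80 bases before to 20 bases after the gene's start, and because 5 of these 6 genes, but only PSMB10 without pairing the libraries by number, passed the test between protrusions and cell bodies. With that pairing 13.0% of all tested genes and 35.3% of abundant coding genes passed as higher in protrusions. These letters are the core of the element through which interferon regulatory factors bind, known from immunoproteasome genes, and their part in the changes was not tested. PSMA4 holds them at position -240 from its start, outside the stretch shown, and had a log2 change of -0.15. Sequences are RefSeq's, build GRCh38.p14, written 5′ to 3′ along each gene's strand, with the matched letters in capitals.
PSMB10: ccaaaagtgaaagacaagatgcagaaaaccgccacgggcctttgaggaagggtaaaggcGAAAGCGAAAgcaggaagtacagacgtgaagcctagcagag
PSMB8: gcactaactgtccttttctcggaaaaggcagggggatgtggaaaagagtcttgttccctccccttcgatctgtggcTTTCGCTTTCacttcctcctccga
PSME1: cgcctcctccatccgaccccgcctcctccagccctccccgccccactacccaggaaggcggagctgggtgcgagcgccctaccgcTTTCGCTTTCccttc
PSME2: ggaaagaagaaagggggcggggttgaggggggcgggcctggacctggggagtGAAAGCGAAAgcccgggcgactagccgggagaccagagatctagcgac
PSMG4: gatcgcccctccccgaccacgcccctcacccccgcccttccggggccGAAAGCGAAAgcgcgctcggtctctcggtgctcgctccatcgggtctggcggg
PSMB4: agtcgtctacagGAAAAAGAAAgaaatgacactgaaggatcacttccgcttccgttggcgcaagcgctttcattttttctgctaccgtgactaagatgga
They lie at chr16:67936831-67936930, minus strand for PSMB10, chr6:32844028-32844127, minus strand for PSMB8, chr14:24136114-24136213, plus strand for PSME1, chr14:24146591-24146690, minus strand for PSME2, chr6:3258867-3258966, plus strand for PSMG4 and chr1:151399493-151399592, plus strand for PSMB4. PSMB8 and PSME1 match on the strand opposite to the gene.

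Few proteasome messages passed the test between the 2 parts of the cell. Of the 47, 1 passed the test as higher in protrusions and 0 as higher in cell bodies (limma on log2(value + 1), adjusted p under 0.05 over all tested genes). The same test called 4.28% of all 10894 tested genes higher in protrusions and 21.5% higher in cell bodies. At an unadjusted p under 0.05, 5 of the 47 were higher and 1 lower in protrusions. The median log2 change, protrusion minus cell body, was 0.15 over the 47 genes, against -0.03 over all tested genes. Proteasome messages are abundant, however, with 44 of 47 at a mean of 20 or more, and the 2376 protein-coding genes at that level had a median of 0.21, of which 11.3% passed as higher in protrusions and 8.71% as higher in cell bodies. All 47 genes passed the filter on low values. Since the libraries are bulk RNA, fewer pieces of a kind in a library and less RNA in each cannot be told apart.

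The libraries that share a number varied together, and a fit with the number as a block called more genes. With the replicate block, 15 of the 47 were higher in protrusions and 1 was lower, while 13.0% of all tested genes were higher and 25.4% lower. Of the 2376 abundant coding genes, 35.3% were higher and 15.9% lower in that fit, so there the proteasome's share of higher messages was near that of other abundant messages. Without the block its share, 1 of 47, was below their 11.3%. In 18 of the 47 genes the protrusion exceeded its own cell body in 5 of 5 numbers, and in 1 gene in 0 of 5. Those shares were 39.9% and 15.8% among the abundant coding genes and 17.0% and 26.5% among all tested genes.

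The counts also depended on how the libraries were scaled. With libraries scaled to equal sums, 1533 genes passed as higher in protrusions and 1879 as higher in cell bodies, where the deposited values gave 466 and 2340. Quantile normalization gave 2380 and 1778. Of the 47 members, 6 were higher in protrusions with equal sums (14.1% of all tested genes and 34.3% of abundant coding genes). After quantile normalization 2 were higher (21.8% and 19.4%), and after median-of-ratios scaling 5 were (10.4% and 26.8%). Equal sums together with the block gave 41 of 47 (33.8% and 74.7%). The members' share was thus below that of abundant coding genes in each scaling without the block. It was above it with equal sums and the block.

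**Figure D1:**
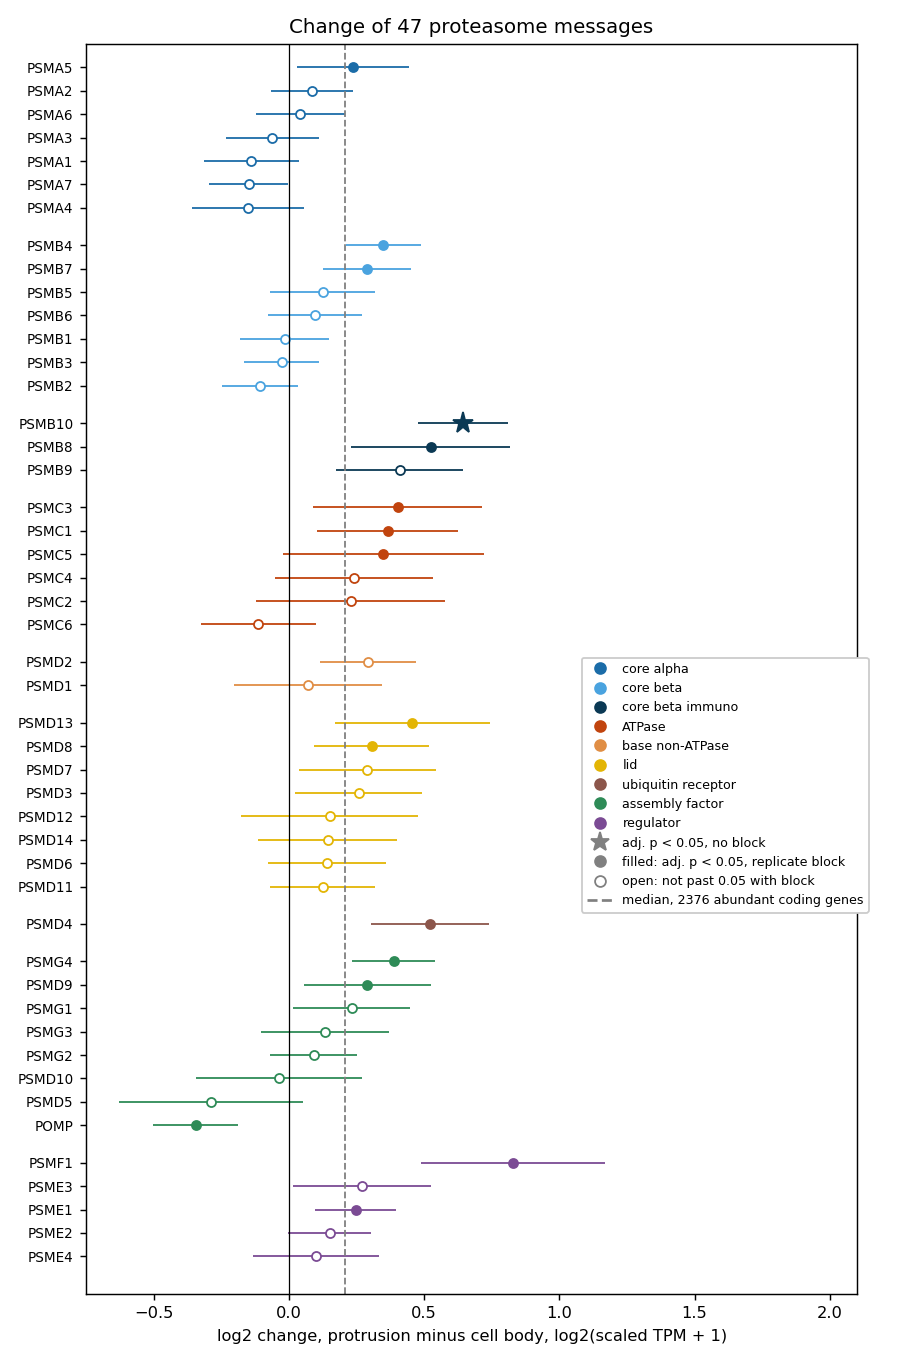
Log2 change of each of the 47 proteasome messages, protrusion minus cell body on log2(scaled TPM + 1), with its standard error from the fit without block (5 libraries per group). PSMB10, the star, passed without the block, filled points passed with the replicate block, and the dashed line marks the median of 0.21 over abundant coding genes.

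The level of the messages differed between subcomplexes, with ranges that overlapped. Over all libraries, in scaled TPM, which is corrected for transcript length, the alpha genes averaged from 262 (PSMA5) to 1802 (PSMA7) and the constitutive beta genes from 156 (PSMB2) to 1055 (PSMB3). The ATPases averaged from 36.2 (PSMC6) to 119 (PSMC3) and the lid genes from 6.35 (PSMD3) to 258 (PSMD8). The highest and lowest genes differed by 6.87 times within the alpha genes, 6.78 times within the constitutive beta genes, 3.28 times within the ATPases and 40.6 times within the lid. Across the 47 genes, which share the same 10 libraries, the log2 change had a Spearman correlation of -0.29 with the log2 mean level, and of -0.01 with exon length for 46 genes found in GENCODE release 29.

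**Figure D2:**
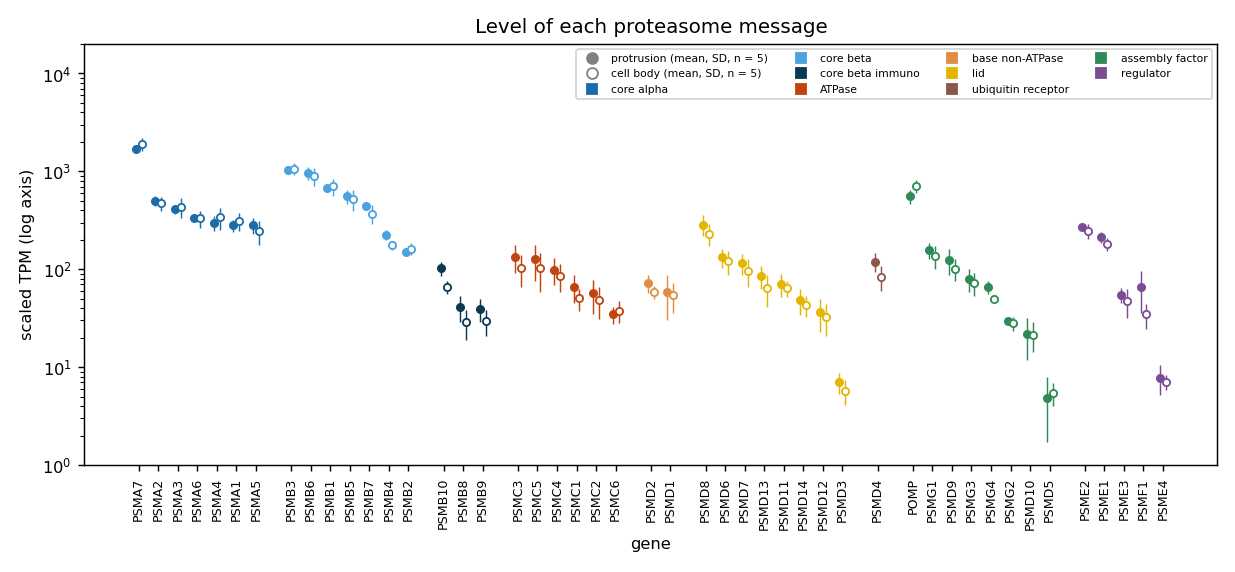
Mean level of each message in scaled TPM on a log axis, with SD over 5 libraries, protrusions as filled and cell bodies as open points, grouped by subcomplex. Core messages other than the immunoproteasome's lie mostly above the ATPase and lid messages, and the 2 points of a gene mostly lie within each other's spread.

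The immunoproteasome beta subunits had the largest changes within the core. PSMB10, which carries the trypsin-like site in place of PSMB7, had 92.9, 119, 83.3, 122 and 96.5 scaled TPM in protrusions 1 to 5, against 71.2, 58.8, 74.1, 71.1 and 51.5 in cell bodies 1 to 5. All 5 protrusions lay above all 5 cell bodies, and the groups overlapped in each of the other 46 members. Groups without overlap made up 3.46% of all tested genes with protrusions higher and 18.4% with cell bodies higher, and 9.64% and 7.11% of abundant coding genes. PSMB10 was 1.56-fold higher in protrusions on the log2(value + 1) scale, a log2 change of 0.64 ± 0.17 (SE, adjusted p = 0.00912 in limma), and the adjusted p stayed between 0.00708 and 0.0319 when any 1 library or both libraries numbered 2 were left out. In GENCODE release 29, 34.8% of its exon bases are shared with another gene, AC040162.1, and the strand setting of the counting is unknown, so part of its reads is uncertain.

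PSMB8, the counterpart of PSMB5, had 42.6, 22.7, 44.8, 56.2 and 37.9 scaled TPM in protrusions 1 to 5, against 29.02, 12.6, 35.9, 37.3 and 28.7 in cell bodies 1 to 5. Each protrusion exceeded its own cell body, but the groups overlapped through protrusion 2, and both libraries numbered 2 were low. The log2 change was 0.52 ± 0.29 (SE, adjusted p = 0.228, and 0.0049 with the replicate block). PSMB9, the counterpart of PSMB6, had 52.6, 30.9, 31.6, 49.6 and 33.4 scaled TPM in protrusions 1 to 5, against 28.2, 18.9, 38.8, 38.9 and 24.4 in cell bodies 1 to 5. It was higher in the protrusion in 4 of 5 numbers, with number 3 the other way (log2 change 0.41, adjusted p = 0.238, and 0.0675 with the block). PSMB8 and PSMB9 are neighbours on chromosome 6 and share 20.6% and 5.7% of their exon bases with other genes.

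The constitutive counterparts had smaller changes. PSMB5, with the chymotrypsin-like site, had 570.2, 459, 503, 698 and 558 scaled TPM in protrusions 1 to 5, against 557, 312, 585, 627 and 522 in cell bodies 1 to 5. PSMB6, with the caspase-like site, had 1037, 1059.8, 987, 990.1 and 704 scaled TPM in protrusions 1 to 5, against 1134, 735, 1018, 919 and 696 in cell bodies 1 to 5. PSMB7, with the trypsin-like site, had 472, 415, 450.3, 460.1 and 416 scaled TPM in protrusions 1 to 5, against 441, 251, 413, 412 and 331 in cell bodies 1 to 5. The groups overlapped for all 3 genes, with cell body 2 the lowest library for PSMB5 and PSMB7. Their log2 changes were 0.12, 0.10 and 0.29, with adjusted p of 0.696, 0.738 and 0.234, and PSMB7 passed with the replicate block (adjusted p = 0.04).

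A ratio of 2 messages within a library does not depend on the library's scaling. PSMB10 stood at 23.3 ± 4.37% of PSMB7 in protrusions and 18.1 ± 3.15% in cell bodies, and PSMB8 at 7.23 ± 1.499% of PSMB5 in protrusions and 5.37 ± 0.828% in cell bodies (SD, n = 5 each). Both ratios were higher in the protrusion in 5 of 5 numbers. PSMB9 stood at 4.19 ± 1.05% of PSMB6 in protrusions and 3.32 ± 0.769% in cell bodies, higher in 4 of 5. The groups overlapped for all 3 ratios, and no test was made of them.

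**Figure D3:**
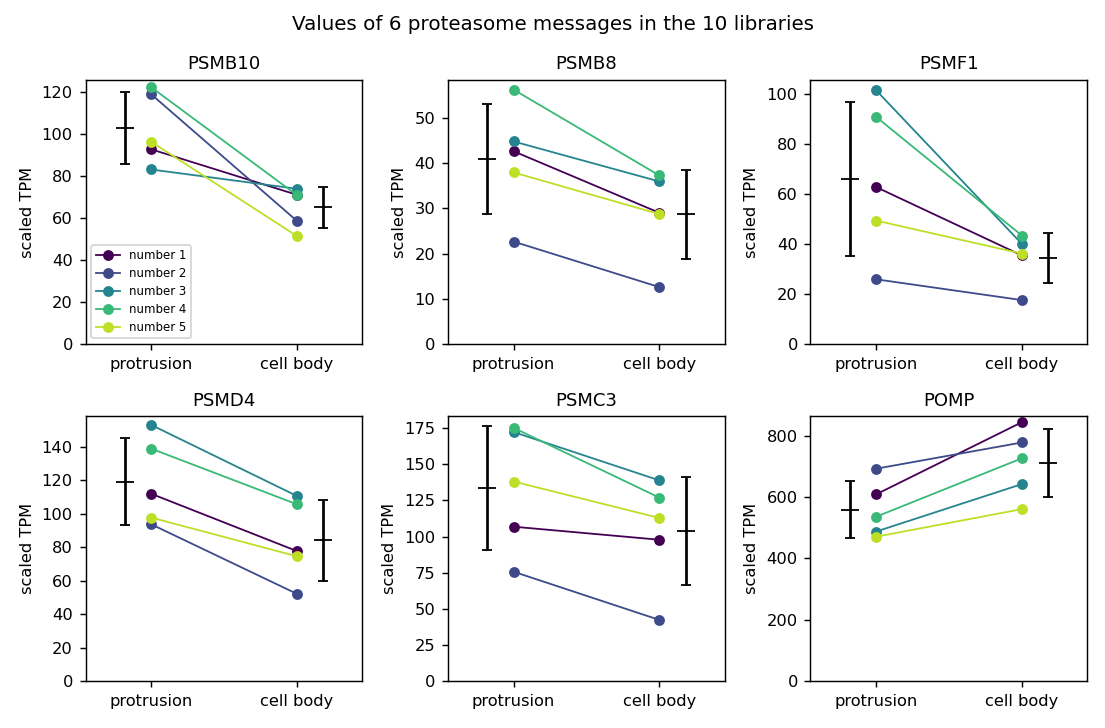
Scaled TPM of 6 messages in each library, protrusions left and cell bodies right, with lines joining libraries of the same number and bars giving mean and SD (n = 5). PSMB10, PSMB8, PSMF1, PSMD4 and PSMC3 are lower in the cell body of every number, POMP is higher in it, and number 2 lies lowest for PSMB8, PSMF1, PSMD4 and PSMC3.

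Among the other core genes, 3 of 7 alpha and 4 of 7 constitutive beta messages had a positive change, and none passed without the block. PSMA5, the alpha gene with the largest change, had 301, 211, 325, 331 and 240.4 scaled TPM in protrusions 1 to 5, against 274, 153, 294, 298 and 197 in cell bodies 1 to 5. It was higher in the protrusion in 5 of 5 numbers (log2 change 0.24 ± 0.21, SE, adjusted p = 0.462, and 0.0425 with the block). PSMA4, at the other end, had 338, 227, 288, 361 and 276 scaled TPM in protrusions 1 to 5, against 400.2, 198, 398, 387 and 307 in cell bodies 1 to 5 (log2 change -0.15, adjusted p = 0.648). It was lower in the protrusion in 4 of 5 numbers, as were PSMA1, PSMA3 and PSMA7. PSMA2 and PSMA6 had changes of 0.09 and 0.04. The median over the alpha genes was -0.06, and it was 0.30 with equal sums, 0.09 with median-of-ratios scaling and 0.03 with quantile normalization, so its sign rests on the scaling.

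PSMB4, a structural beta subunit, had 226, 256, 184, 228 and 225 scaled TPM in protrusions 1 to 5, against 193, 149.9, 189, 176 and 168 in cell bodies 1 to 5. It was higher in 4 of 5 numbers, and the groups overlapped only through protrusion 3 (log2 change 0.35 ± 0.14, SE, adjusted p = 0.0862, 0.0283 with the block and 0.0491 without protrusion 3). PSMB2 had 164, 149.9, 141, 158 and 134 scaled TPM in protrusions 1 to 5, against 187, 135, 172, 171 and 144 in cell bodies 1 to 5 (log2 change -0.11, adjusted p = 0.638). Its groups overlapped widely. The other beta genes PSMB1 and PSMB3 had log2 changes of -0.02 and -0.03.

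Of the 6 ATPase messages, 5 had a positive change and 0 passed without the block. PSMC3, the ATPase gene with the largest change, had 107, 75.6, 172, 175 and 138 scaled TPM in protrusions 1 to 5, against 97.8, 42.2, 139, 127 and 113 in cell bodies 1 to 5. Both libraries numbered 2 were the lowest of their group, and each protrusion exceeded its cell body (log2 change 0.40 ± 0.31, SE, adjusted p = 0.399, and 0.0139 with the block). PSMC6 had 36.1, 23.1, 40.2, 33.8 and 39.8 scaled TPM in protrusions 1 to 5, against 38.8, 25.01, 50.7, 40.5 and 33.9 in cell bodies 1 to 5, lower in the protrusion in 4 of 5 numbers (log2 change -0.11, adjusted p = 0.747). PSMC1, PSMC2 and PSMC5 were also higher in 5 of 5 numbers, and of these PSMC1 (adjusted p = 0.0225) and PSMC5 (0.0203) passed with the block. PSMC4 had a change of 0.24. PSMC1 shares 75.8% of its exon bases with NRDE2, so its value is uncertain. In GENCODE release 29, 12 of the 46 matched members share 10% or more of their exon bases with other genes. Among them are PSMC5 (19.5%), PSMD9 (22.6%) and PSMG4 (15.0%), which passed with the block.

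Of the large base subunits, PSMD2 had 57.1, 58.9, 71.9, 85.1 and 89.5 scaled TPM in protrusions 1 to 5, against 56.9, 46.0, 69.7, 56.4 and 63.9 in cell bodies 1 to 5. It was higher in 5 of 5 numbers (log2 change 0.29 ± 0.18, SE, adjusted p = 0.266, and 0.071 with the block). PSMD1 had 52.3, 110.2, 38.7, 47.5 and 46.5 scaled TPM in protrusions 1 to 5, against 49.96, 86.4, 45.7, 43.0 and 45.4 in cell bodies 1 to 5. Here the libraries numbered 2 were the highest in both groups, opposite to the ATPases (log2 change 0.07, adjusted p = 0.885). PSMD4, a receptor that binds ubiquitin chains, had 112, 93.8, 153, 139 and 97.8 scaled TPM in protrusions 1 to 5, against 77.7, 52.1, 111, 106 and 74.6 in cell bodies 1 to 5. Each protrusion exceeded its own cell body, though the groups overlapped (log2 change 0.52 ± 0.22, SE, adjusted p = 0.102, and 0.00163 with the block).

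The 8 lid messages chosen by the symbol pattern had a positive change, and 0 of 8 passed without the block. SHFM1, a small lid subunit that the pattern leaves out, stood at 425 ± 66.6 scaled TPM in protrusions and 459.6 ± 47.8 in cell bodies (SD, n = 5 each), which is -0.12 on the log2 scale (limma adjusted p = 0.612, or 0.283 when blocked). PSMD13 had 92.5, 50.4, 106, 102 and 78.9 scaled TPM in protrusions 1 to 5, against 61.5, 29.3, 87.2, 84.9 and 59.7 in cell bodies 1 to 5. Number 2 was again the lowest in both groups (log2 change 0.46 ± 0.29, SE, adjusted p = 0.283, and 0.00627 with the block). PSMD11, with the smallest change, had 69.3, 64.9, 102, 65.9 and 51.0 scaled TPM in protrusions 1 to 5, against 65.8, 51.3, 80.1, 67.8 and 54.5 in cell bodies 1 to 5 (log2 change 0.12, adjusted p = 0.7), and its groups overlapped. The changes of PSMD7, PSMD3, PSMD12 and PSMD6 lay between 0.14 and 0.29. PSMD8 was the other lid gene to pass with the block (log2 change 0.31, adjusted p = 0.0112). PSMD14, the deubiquitinase of the lid, stood at 48.0 ± 14.1 scaled TPM in protrusions and 42.7 ± 10.47 in cell bodies (SD, n = 5 each), a log2 change of 0.14 (adjusted p = 0.739).

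Set side by side without a test, the median log2 changes were 0.09 over the 17 core genes, 0.30 over the 6 ATPases and 0.20 over the 8 lid genes, against 0.21 over abundant coding genes. Within each number, the median change of the ATPases exceeded that of the alpha genes by 0.21, 0.06, 0.65, 0.31 and 0.27 in numbers 1 to 5. That of the lid differed from the alpha genes by 0.23, -0.02, 0.54, 0.36 and 0.29. These differences hardly depend on the scaling of a library. The difference was close to 0 in number 2 for both and largest in number 3. The immunoproteasome genes exceeded the alpha genes by 0.45 to 0.68 in 5 of 5 numbers and the other beta genes did so by 0.03 to 0.21. The alpha genes had the lowest median change of these groups, -0.06, which lies below that of abundant coding genes as well. Abundant coding genes were not set against the alpha genes by number, so whether these differences are particular to a subcomplex was not tested.

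**Figure D4:**
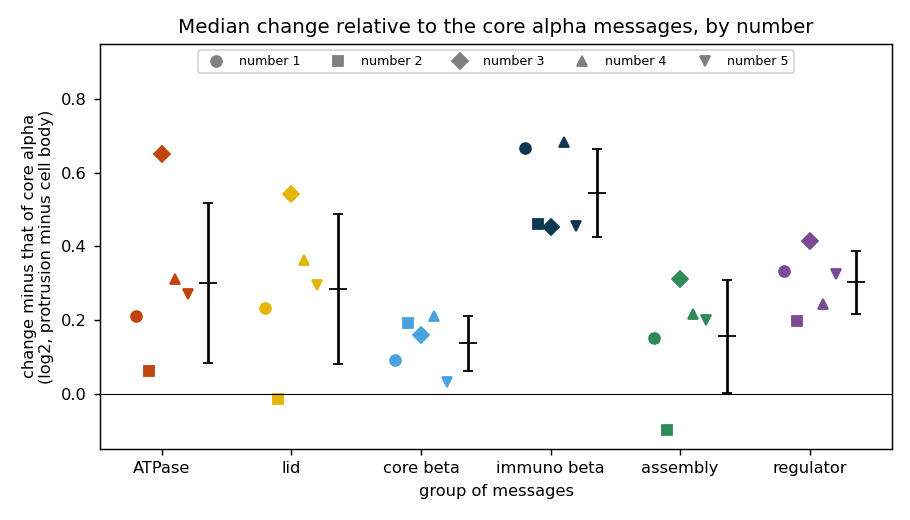
Median log2 change of each group of messages minus that of the alpha genes, protrusion minus cell body, 1 point per number with mean and SD (n = 5). The immunoproteasome beta genes have the highest mean, with points at 0.45 to 0.68, and the ATPase and lid points spread from near 0 in number 2 to above 0.5 in number 3.

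The medians without block shifted when a single library was left out, which leaves the other library of its number unmatched. The ATPase median was -0.01 without cell body 2, 0.54 without protrusion 2 and 0.15 without protrusion 3, and 0.25 without both libraries numbered 2. The lid median was 0.06 without cell body 2, 0.38 without protrusion 2 and 0.17 without both. The core median was -0.05 without cell body 2 and -0.01 without both libraries numbered 2. Taken within numbers 1 to 5, the median change was 0.08, 0.40, 0.36, 0.21 and 0.26 over the ATPases. It was 0.10, 0.32, 0.25, 0.26 and 0.28 over the lid, and -0.05, 0.44, -0.22, 0.03 and 0.08 over the core.

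The spread between numbers was wider for ATPase and lid messages than for alpha and constitutive beta messages. After subtracting each gene's mean, the median ATPase stood at -0.64 in protrusion 2 and -1.23 in cell body 2, and at 0.65 in protrusion 3 and 0.36 in cell body 3, on the log2 scale. The median alpha gene stood at -0.28 in protrusion 2 and -0.48 in cell body 2, and at -0.09 in protrusion 3 and 0.20 in cell body 3. The SD between the means of the 5 numbers had a median of 0.56 over the ATPases, 0.41 over the lid and 0.37 over the assembly factors. It was 0.33 over the 3 immunoproteasome genes, 0.31 over the regulators, 0.23 over the alpha genes and 0.21 over the constitutive beta genes, against 0.28 over abundant coding genes. The groups also differ in level, and the part of level in this spread was not tested. Cell body 2 also had the largest scaling factor of the 10 libraries, 1.39, and protrusion 2 the highest MALAT1 of the protrusions. Their part in these values was not tested.

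**Figure D5:**
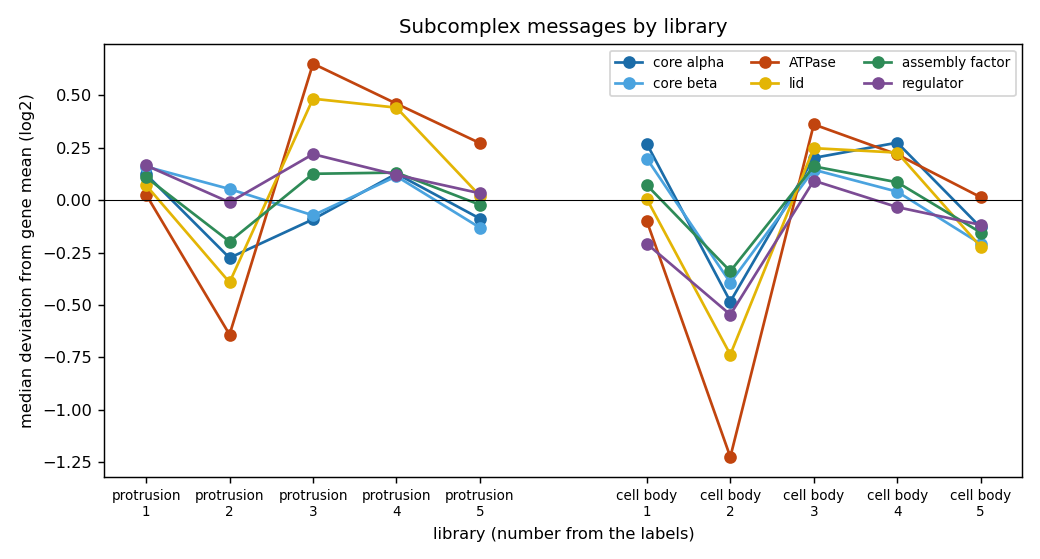
Median deviation of each group of messages from the gene means, log2 scale, in each library, with lines joining libraries only for reading. ATPase and lid messages are lowest in protrusion 2 and cell body 2 and highest in protrusion 3 and cell body 3, with smaller swings in the alpha and constitutive beta genes.

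The assembly factors had changes of both signs. POMP, the chaperone that completes the beta ring, had 609, 692, 487, 536 and 470.3 scaled TPM in protrusions 1 to 5, against 844, 778, 642, 726 and 560.4 in cell bodies 1 to 5. It was lower in the protrusion in 5 of 5 numbers and was the only one of the 47 genes called lower with the block (log2 change -0.35 ± 0.16, SE, adjusted p = 0.136, and 0.00331 with the block). Its change was 0.01 with libraries scaled to equal sums (adjusted p = 0.944, and 0.869 with the block), -0.28 after quantile normalization (adjusted p = 0.0573) and -0.20 with median-of-ratios scaling (adjusted p = 0.355). PSMG4, which pairs with PSMG3 to build the alpha ring, had 71.1, 80.9, 63.5, 60.6 and 53.5 scaled TPM in protrusions 1 to 5, against 53.9, 53.4, 50.4, 44.9 and 46.5 in cell bodies 1 to 5. Each protrusion exceeded its cell body (log2 change 0.39 ± 0.15, SE, adjusted p = 0.0836, and 0.0119 with the block). Its partner PSMG3 had a log2 change of 0.13, and the other alpha ring pair, PSMG1 and PSMG2, had 0.23 and 0.09.

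Of the chaperones of the base, PSMD9 passed with the block (log2 change 0.29, adjusted p = 0.0338), while PSMD10 and PSMD5 had changes of -0.04 and -0.29 and did not pass. A second PSMD9 entry ranged from 0.239 to 12.7 in protrusions and from 0.657 to 9.88 in cell bodies. Summed with the first, PSMD9 had an adjusted p of 0.423 without the block, against 0.416 for the first entry alone, and the sum was not fitted with the block.

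Among the regulators, PSMF1 had the largest change of all 47 genes. It encodes PI31, an inhibitor of the core in the test tube and, in fly and mouse neurons, an adaptor that links proteasomes to motor proteins. PSMF1 had 62.9, 26.0, 102, 91.0 and 49.5 scaled TPM in protrusions 1 to 5, against 35.5, 17.7, 40.2, 43.5 and 36.3 in cell bodies 1 to 5. Every protrusion exceeded its own cell body, and protrusion 2 alone fell within the range of the cell bodies. The log2 change of 0.83 ± 0.34 (SE) missed the threshold without the block (adjusted p = 0.0928) and passed with it (7.03e-04), without protrusion 2 (0.00616), without both libraries numbered 2 (0.0055) and after quantile normalization (0.0491). It also missed with equal sums (0.0512), with median-of-ratios scaling (0.0532) and without any other single library (up to 0.217).

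PSME1 and PSME2 encode the 2 kinds of subunit of an activator ring that opens the core, and lie next to each other on chromosome 14. PSME1 had 218, 256, 190.2, 200.1 and 199 scaled TPM in protrusions 1 to 5, against 168, 225, 171, 181 and 152 in cell bodies 1 to 5, with each protrusion above its cell body (log2 change 0.25 ± 0.15, SE, adjusted p = 0.264, and 0.0374 with the block). PSME2 had 279.8, 256, 263, 267 and 295 scaled TPM in protrusions 1 to 5, against 261, 176, 278, 289 and 238 in cell bodies 1 to 5, and its groups overlapped (log2 change 0.15, adjusted p = 0.532). PSME4, which encodes a further activator, had 4.69, 11.6, 8.58, 7.95 and 6.26 scaled TPM in protrusions 1 to 5, against 5.99, 8.77, 7.78, 5.90 and 6.69 in cell bodies 1 to 5, with a log2 change of 0.10 (adjusted p = 0.804). PSME3, of the nuclear activator, had a change of 0.27. PSMC3IP, which is no subunit, stood at 21.0 ± 11.2 scaled TPM in protrusions and 14.9 ± 5.91 in cell bodies (SD, n = 5 each) (log2 change 0.40, adjusted p = 0.525).

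Promoters of 41 of the 47 genes were in the RefSeq table, and PSMA7, PSMB1, PSMB6, PSMB7, PSMD4 and PSMG3 had no entry. The letters GAAA, any 2 bases and GAAA, searched on both strands from 250 bases before to 50 after the start, were found in 7 of the 41 genes (17.1%), the 6 printed above and PSMA4, against 4.38% of all 27305 genes in the table. These 7 had a median log2 change of 0.35, from -0.15 in PSMA4 to 0.64 in PSMB10, and 5 of them rose with the block. The 34 without these letters had a median of 0.15, and 8 rose and 1 fell with the block. In that fit 13.0% of all tested genes and 35.3% of abundant coding genes rose, and 25.4% and 15.9% fell. Without the block 1 of the 7, PSMB10, and 0 of the 34 rose. TGACNNNGC, the core of the element that NFE2L1 and NFE2L2 bind in proteasome genes, was found in 15 of the 41 (36.6%), against 16.1% of all genes. Some hits of the 2 motifs fall in the same promoter, as in PSME1, PSME2 and PSMA4. A match is only a description of the letters, and no test was made.

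The list of the ubiquitin and proteasome pathway held 30 genes beyond the members, all tested: 3 rose, 7 fell and 20 did not pass, against 4.28% higher and 21.5% lower of all tested genes. With the block 4 rose and 8 fell, against 13.0% and 25.4%. Over the list the log2 changes had a median of 0.00. The balance turned with the scaling: 4 rose and 3 fell with equal sums (median 0.30), 9 rose and 5 fell after quantile normalization (median 0.32), and 3 rose and 6 fell with median-of-ratios scaling (median 0.13). UBB, a polyubiquitin gene, had 1459.5, 1311, 1386, 1454 and 1288 scaled TPM in protrusions 1 to 5, against 3046, 2446, 2619.8, 2906 and 3183 in cell bodies 1 to 5. The groups did not overlap (log2 change -1.04 ± 0.13, SE, adjusted p = 1.42e-05). DDI2, the protease that activates NFE2L1, stood at 0.596 ± 0.443 scaled TPM in protrusions and 1.91 ± 0.497 in cell bodies (SD, n = 5 each), a log2 change of -0.89 with an adjusted p of 0.00375. The peptidase gene BLMH stood at 7.19 ± 1.42 scaled TPM in protrusions and 13.7 ± 2.31 in cell bodies (SD, n = 5 each), a log2 change of -0.85 with an adjusted p of 0.00399. DDI2 missed the threshold after quantile normalization (adjusted p = 0.272) and BLMH with equal sums (0.0981). In protrusions 1, 3, 4 and 5 DDI2 was at 0.299 to 0.487, below the filter's limit of 1. It was thus tested mainly through the cell bodies, where it is higher, and its call is uncertain.

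The following genes of the list were named after their values were seen. RPS27A, which encodes ubiquitin fused to a ribosomal protein, stood at 2793 ± 711 scaled TPM in protrusions and 4679.7 ± 1091 in cell bodies (SD, n = 5 each), a log2 change of -0.75 (adjusted p = 0.0103). The repeats and pseudogenes of ubiquitin genes make the reads of UBB and RPS27A uncertain. UBQLN1, of a shuttle protein, and UBA6, of a ubiquitin-activating enzyme, fell with log2 changes of -0.86 and -0.72. THOP1, a peptidase, and UFD1L, a partner of the segregase VCP, rose with changes of 0.81 and 0.64. UBQLN1 missed the threshold with equal sums, UBA6 (adjusted p = 0.0498) with all 3 scalings and without any 1 of 7 libraries, and UFD1L without protrusion 4 or 5. ADRM1, a ubiquitin receptor, rose with the block (log2 change 0.42, adjusted p = 0.00396, and 0.343 without it).

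Values for a pair of other large complexes follow for comparison. The COP9 signalosome, whose subunits resemble the lid, had 10 tested genes, of which 1 rose, 0 fell and 9 did not pass, with a median log2 change of 0.28. With the block, with equal sums and with median-of-ratios scaling 3 of the 10 rose, and after quantile normalization 2 did. The gene that rose was GPS1, at 51.6 ± 5.07 scaled TPM in protrusions and 33.7 ± 4.37 in cell bodies (SD, n = 5 each) (log2 change 0.61, adjusted p = 0.00758). The chaperonin CCT, a ring complex that folds cytoskeletal proteins, had 8 tested genes with a median of 0.25, and 0 passed without the block while CCT5 and CCT7 rose with it. With equal sums 5 of the 8 rose, with median-of-ratios scaling 2 and after quantile normalization 0. Without the block, 4.28% of all tested genes and 11.3% of abundant coding genes rose, and with it 13.0% and 35.3%. The shares were 14.1% and 34.3% with equal sums, 10.4% and 26.8% with median-of-ratios scaling, and 21.8% and 19.4% after quantile normalization. The differences between these complexes and the proteasome were not tested.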

How the data were processed

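Proteasome messages were read from 1 deposited table of 26134 Ensembl genes with 10 libraries. Per the submitters' processing notes, cutadapt 1.10, FastQC 0.10.1, HISAT2 and StringTie 1.3 were used; build, annotation and strand setting were not given in the sources used here. No source names the unit. In each library 98.3% to 100% of the deposited values below 2 were whole multiples of TPM to 2 decimals times 1 factor (tolerance 0.00051), so the authors' values are called scaled TPM. The deposited values were used as given. The test was limma 3.58.1 (R 4.3.3) with its trend option, run on log2(value + 1) for genes that reached 1 in 5 or more of the 10 libraries. Every adjusted p is Benjamini-Hochberg over all genes so tested. Python 3.11.15, pandas 2.3.3 and matplotlib 3.10.9 made the summaries, and the fit was tested on simulated data.

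The submitters describe the cell bodies as corresponding to the protrusions. In deviations from group means, libraries of the same number correlated with 0.24 to 0.58 across genes and others with -0.43 to 0.29, and each protrusion correlated best with the cell body of its number, so the replicate block is given beside the results it changes. Values were named for members past the threshold, the catalytic, immunoproteasome, POMP and PSME1 and PSME2 genes, and the largest and smallest change of each subcomplex; genes called with the block were added after their values were seen. The members and lists were chosen with earlier results of these data known. The authors' own comparison was not used here. Some genes of the pathway list are not reported here. Alternatives were 3 scalings, a pseudocount of 0.1, no filter, summed entries, the block, and leaving out libraries.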

Additional observations from a re-analysis of the deposited data

Results flagged for a closer look

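Among 46 groups of 5 libraries, those of the members named by rule, 3 held a library far from the others. Chance would give about 1 group in 20 if the groups were independent. Libraries of the same number varied together, and PSMD1 was flagged in both libraries numbered 2. Whether chance gives 3 of 46 was therefore not tested. PSMD1 stood at 110.2 scaled TPM in protrusion 2, against 38.7 to 52.3 in the other protrusions, and at 86.4 in cell body 2, against 43.0 to 49.96 in the other cell bodies. PSMB6 stood at 704 in protrusion 5, against 987 to 1059.8 in the other protrusions.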

How the results depend on the processing

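Genes higher in protrusions numbered 466 with the deposited values, 1533 with equal sums, 2380 after quantile normalization, 1132 with median-of-ratios scaling, 1412 with the replicate block, and 3677 with the block and equal sums together, an alternative chosen after seeing the data. In the same order 1, 6, 2, 5, 15 and 41 of the 47 members were higher, and 1 was lower with the block. Genes higher in cell bodies numbered 3975 with no filter, against 2340. Leaving out single libraries gave 257 to 649 genes and 1 to 2 members higher in protrusions, and leaving out both libraries numbered 2 gave 2 members. Equal sums, quantile normalization and median-of-ratios scaling put the median gene at 0.24, 0.28 and 0.09, against -0.03. In the same order they put the median abundant coding gene at 0.56, 0.22 and 0.35, against 0.21. With equal sums, with or without the block, the median log2 change was 0.51 over all members, 0.44 over the core, 0.65 over the ATPases, 0.53 over the lid, 0.46 over the assembly factors and 0.60 over the regulators. Median-of-ratios scaling gave 0.30 over all members, 0.44 over the ATPases, 0.34 over the lid and 0.26 over the assembly factors. Leaving out both libraries numbered 2 gave 0.057 over the regulators. Leaving out single libraries gave 0.032 to 0.30 over all members, -0.0066 to 0.54 over the ATPases, 0.058 to 0.38 over the lid, 0.0060 to 0.22 over the assembly factors, -0.05 to 0.16 over the core and 0.17 to 0.27 over the regulators. PSMB2 turned to 0.25 with the block and equal sums, against -0.11. Of 722 values of 38 genes, 651 kept their side of the threshold, 15 of them with the other sign (PSMC6, POMP, PSMA4, PSMB2, PSMB5, PSMB6, PSMD1, PSMD11 and PSME4, none past the threshold), 49 came to pass it, 21 no longer passed it and 1 reversed. The block changed no other named call than those given with the results, and the cause of these shifts was not tested. Read depth is unknown, which limits PSMD3, PSMD5 and PSME4, and DDI2 and UBA6 of the pathway list, with their low values.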
